A study of Bos taurus with 13 samples.

Results

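The genes described here are 118 of the 16595 genes measured in bovine mesenchymal stem cells, chosen by their measured levels: they were higher in cells that had recovered from a short heat exposure than in unheated cells, while the mean after the short exposure itself lay close to that of its control. Values are log2(value + 1) of the deposited normalised signal, and a difference is a difference of group means on that scale. A gene was a member when its mean value over the 13 libraries was from 50 to under 20000, when 6 h of heat differed from its control by less than 0.3 in size, when recovery exceeded the 3-day control by at least 0.5, and when both recovery libraries lay above both 3-day control libraries. Among the 6508 genes that met the limits on the mean and on the 6 h difference, 119 were higher by at least 0.5 after recovery, and in 1 of these the libraries of the groups overlapped. The limit at 6 h holds for the mean over 3 replicates: within replicates 1 and 2 the 6 h difference was at least 0.3 in size in 18 members (15.3%), and in replicate 3 in 24 (20.3%), where it ran from -0.92 to 0.89. All 118 members were among the 13684 genes tested, which had a value of at least 10 in at least 2 libraries.

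Umbilical cord was the source of these primary cells, used from passage 2 to passage 4 and grown in low-glucose medium with fetal bovine serum. The 6 h control (n = 3) was kept at 37 °C for 6 h and the 6 h heat group (n = 3) at 40.5 °C for 6 h. The 3-day control (n = 2) was kept at 37 °C for 3 days and the 3-day heat group (n = 3) at 40.5 °C for 3 days. The recovery group (n = 2) had 6 h at 40.5 °C and then 66 h at 37 °C. The labels do not say whether libraries of a group came from separate animals or cultures, so p-values measure the spread between these libraries, which may be technical.

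Mesenchymal stem cells are adherent stromal cells that can form bone, cartilage and fat cells. When cells are heated, the transcription factor HSF1 is released from chaperones and switches on the heat shock genes, and these return towards their resting level once the temperature falls and the chaperones bind HSF1 again. The files give Ensembl identifiers without gene names, and none of them matched the RefSeq gene table used here. For that reason the members are described by their levels, 4 of them are given by identifier, and neither gene groups nor the markers of the labelled cell type were examined.

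Between 14859428 and 39117065 reads were recovered per library. Libraries numbered 3 exist only for both 6 h groups and for 3-day heat, and they stood apart from those numbered 1 and 2. In 13 members (11.0%) replicate 3 of the 6 h groups lay at least 1 on the log2 scale from replicates 1 and 2, higher in 7 and lower in 6, against 6.74% of the tested genes.

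The members spanned low to high abundance. Their mean normalised value ran from 54.3 to 9046 with a median of 367. It was under 200 in 38 members, from 200 to under 1000 in 49, and 1000 or more in 31. The lowest number of reads behind any member in any library was 6.

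After recovery the members exceeded the 3-day control by a median of 0.64 on the log2 scale, from 0.505 to 1.76. The difference was under 0.6 in 46 members (39.0%) and at least 1 in 3. The 3 members just inside the limit had differences of 0.505, 0.513 and 0.513, and the 3 genes just outside it, which met the rest of the rule, had 0.498, 0.498 and 0.497. Because the rule chose these values, they are a description and carry no test. In the limma fit over all genes, 20 members (16.9%) passed an adjusted p of 0.05 as higher after recovery, where 0.643% of the tested genes did, and nothing is read from that count. In bulk RNA, a higher level in the same cells and more cells of a type that expresses the gene cannot be told apart.

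The spread between the 3-day control libraries was a sizeable part of this difference. The 3-day control libraries differed from each other by a median of 0.28 over the members and the recovery libraries by 0.13, while the medians over all tested genes were 0.16 and 0.11. Replicate 1 of the 3-day control was above replicate 2 in 93 members (78.8%), against 48.0% of the tested genes. In recovery, replicate 1 was above replicate 2 in 80 members (67.8%), against 47.6% of the tested genes. The difference of recovery from the control had a median of 0.57 between the replicate 1 libraries and of 0.76 between the replicate 2 libraries. Both were at least 0.3 in 105 members. The gap from the lower recovery library to the higher control library had a median of 0.44 and was under 0.1 in 3 members. How many genes met the rule depended on the libraries of both groups. Without replicate 1 of the 3-day control 202 genes met it, among them 108 of the members, and without replicate 2 of that group 151 genes met it, among them 73 of the members. Without replicate 1 of recovery 152 genes met it, among them 108 of the members, and without replicate 2 of recovery 136, among them 103.

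As a set, the members stood at the 6 h level in all 6 h libraries and above it in all libraries of the later time. Each value was set against the gene's mean over the 6 libraries of the 6 h groups. The median over members was between -0.029 and 0.058 in those 6 libraries. It was 0.39 and 0.12 in the 3-day control libraries, 0.99 and 0.90 in the recovery libraries, and 0.59, 0.57 and 0.47 in the 3-day heat libraries. The recovery libraries were the highest, and the 3-day heat libraries lay between them and the 3-day control. The scale and the rule's limit at 6 h keep the 6 h medians near 0, and the rule favours high recovery values. Both features therefore describe the members and test nothing. Over all tested genes the median was between -0.00052 and 0.016 in each of the 13 libraries. The members together held between 0.330% and 0.344% of the summed value of a 6 h library, 0.467% and 0.381% in the 3-day control, 0.679% and 0.653% in recovery, and between 0.532% and 0.548% under 3 days of heat.

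**Figure D1:**
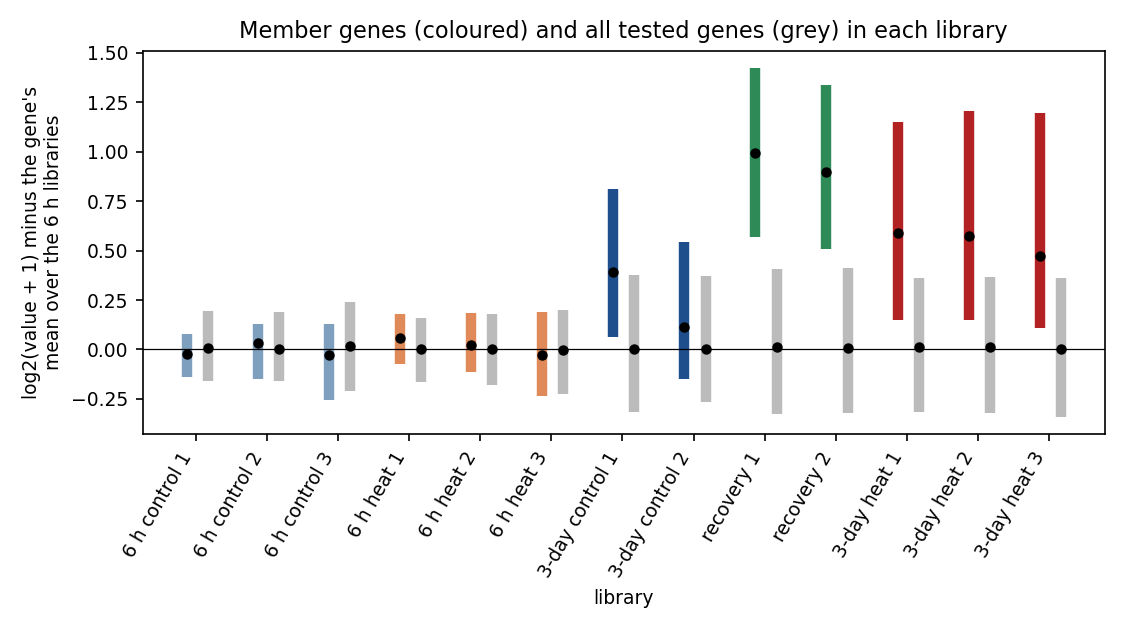
The vertical axis is log2(value + 1) minus the gene's mean over the 6 libraries of the 6 h groups, and the horizontal axis lists the 13 libraries. Bars run from the lower to the upper quartile over the 118 members (coloured by group) or over all 13684 tested genes (grey), and points are medians. The members' medians of 0.99 and 0.90 in the recovery libraries are the highest, those of the 3-day heat libraries lie between 0.47 and 0.59, and the grey medians stay near 0.

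The difference after recovery can come from a high recovery group, a low control, or both. Set against the 6 h libraries, recovery was high more often than the control was low. Those libraries are from an earlier time, so this does not show which of the later groups departed. Both recovery libraries were above all 6 libraries of the 6 h groups in 105 members (89.0%), against 23.4% of the tested genes. Both 3-day control libraries were below all of them in 10 members (8.47%), against 17.6% of the tested genes. In 42 members (35.6%, against 18.8%) both 3-day control libraries were themselves above all 6 h libraries, so these genes were higher after 3 days at 37 °C and higher still after heat and recovery. Both conditions, recovery above and control below, held in 5 members (4.24%, against 0.0658%). The rule favours high recovery and low control values, so these counts describe the members and test nothing. In group means, the recovery group exceeded the 6 h level by a median of 0.93, and the 3-day control by 0.27. Both groups were above the 6 h level in 81 members, and 35 members were above it in recovery and below it in the control. The same orders of group means were not counted over all tested genes, so they describe the members only.

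**Figure D2:**
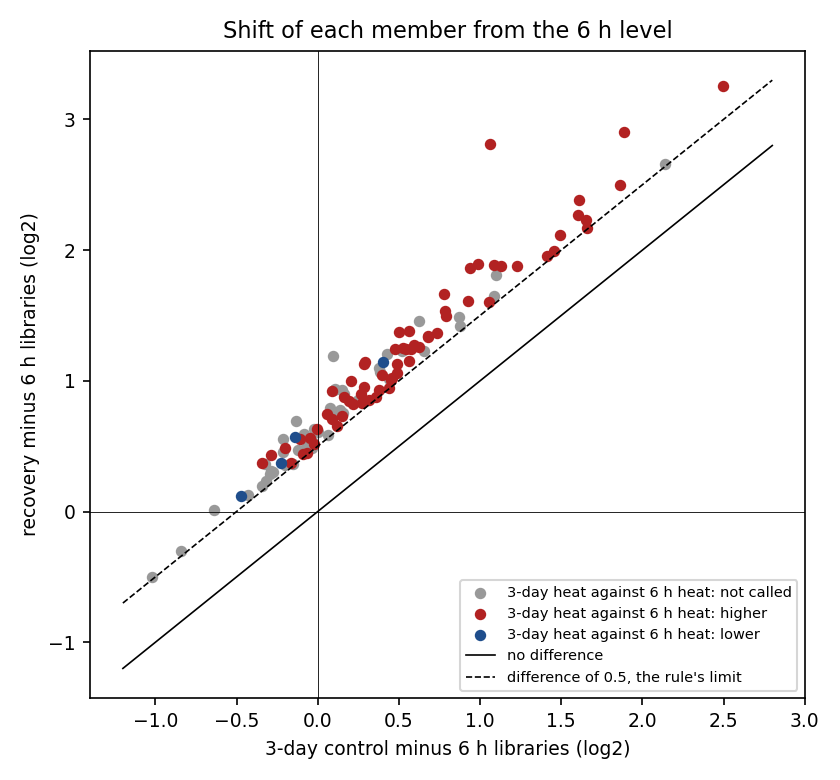
Each point is 1 of the 118 members, with the shift of the 3-day control from the 6 h libraries on the horizontal axis and the shift of the recovery group on the vertical axis, both on the log2 scale. Colour gives the result of 3-day heat against 6 h heat, the solid line marks equal shifts and the dashed line the limit of 0.5 that the rule set, above which all members lie. Most points lie up and to the right of the zero lines, where the 81 members above the 6 h level in both groups are.

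ENSBTAG00000009153 had the largest difference after recovery, 1.76. Its normalised values were 28.3, 29.4 and 27.5 in the 6 h control, 36.3, 29.0 and 20.5 in the 6 h heat group, 102 and 34.6 in the 3-day control, 240.1 and 173 in recovery, and 135, 142 and 68.8 under 3 days of heat. Recovery was the highest group, and of the 3-day libraries only the lower control overlapped the 6 h libraries. The 3-day control libraries differed from each other by 1.54 on the log2 scale, and the gap from the higher of them to the lower recovery library was 0.75. Under 3 days of heat the gene rose against 6 h of heat by 1.94 on the log2 scale (SE 0.39, limma adjusted p 0.00192).

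ENSBTAG00000012904 was next, with a difference of 1.09. Its values were 1491, 1476 and 1792 in the 6 h control, 1966, 2069 and 1759 in the 6 h heat group, 1948 and 1780 in the 3-day control, 3986 and 3965 in recovery, and 1725, 1829 and 1886 under 3 days of heat. The recovery libraries lay above all 11 others, which overlapped among the remaining groups. Within replicates 1 and 2 the 6 h heat libraries were above the 6 h control by 0.44 on the log2 scale, and in replicate 3 the difference was -0.027. Between 3 days and 6 h of heat the log2 difference was -0.088 (SE 0.088, limma adjusted p 0.442).

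The 3-day heat libraries entered the rule only through the overall mean, and the 6 h heat libraries only through that mean and their difference from the control. The change from 6 h to 3 days at 40.5 °C was therefore the measure closest to independent of the choice of members, and it was tested in limma over all 13684 genes. It spans both longer heat and longer time in culture, and these cannot be told apart within it. Members are said to rise or fall under 3 days of heat by this comparison, not against the 3-day control. Of the 118 members, 66 (55.9%) rose and 4 (3.39%) fell at an adjusted p of 0.05. Over all tested genes 21.8% rose and 22.2% fell, and over the 6508 genes that met the limits on the mean and on the 6 h difference 20.7% rose and 24.4% fell. The median change was 0.57 over the members and -0.0031 over all tested genes. With the replicate number as a block, 73 members rose and 9 fell, against 27.9% and 28.4% of the tested genes. Within replicates 1 and 2 the counts were 72 and 10, against 27.7% and 27.9%.

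**Figure D3:**
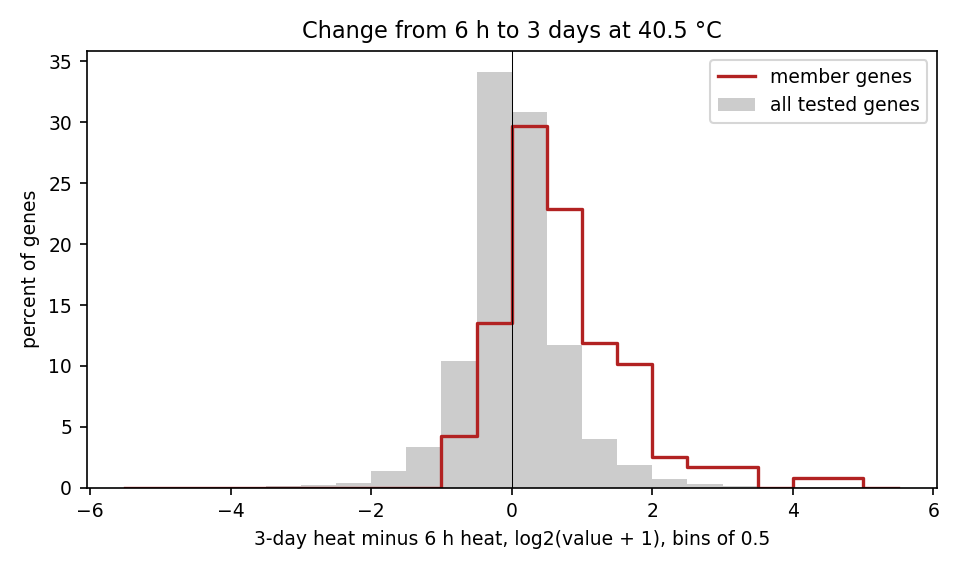
The horizontal axis is the difference of 3-day heat from 6 h heat in log2(value + 1), in bins of 0.5, and the vertical axis is the percent of genes in a bin. Grey bars are all 13684 tested genes and the red line is the 118 members, whose line is shifted to the right, with a median of 0.57 against -0.0031.

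The 66 members that rose under 3 days of heat did so by a median of 1.14, from 0.18 to 4.67, and 34 of them by at least 1. The share of all tested genes called with a rise of at least 1 was not counted. By size alone, called or not, 11.9% of the members and 3.98% of the tested genes changed by 1 to 1.5. A change of 1.5 to 2 was seen in 10.2% and 1.86%. From 2 to 2.5 the shares were 2.54% and 0.745%, and from 2.5 to 3 they were 1.69% and 0.329%. From 3 to 3.5 they were 1.69% and 0.168%, and from 3.5 to 4 they were 0% and 0.058%. From 4 to 4.5 they were 0.847% and 0.037%, and from 4.5 to 5 they were 0.847% and 0.029%. From 5 upwards they were 0% and 0.015%. Of the 66, 3 reached the limit of 50 on the mean only through the 3-day heat libraries, so their rise was not independent of the rule. With that limit set on the other libraries, a choice made after seeing the data, 115 members were left, of which 63 (54.8%) rose, 31 of them by at least 1, and the median change over the 115 was 0.55. All 3-day heat libraries were above all 6 h libraries in 68 members (57.6%), against 17.6% of the tested genes, and below all of them in 4 members (3.39%), against 18.0%. The largest rise was seen in a member with values of 47.1, 27.7 and 25.1 in the 6 h heat group and 1184, 987 and 504 under 3 days of heat (log2 difference 4.67, SE 0.37, limma adjusted p 5e-06). Its 3-day control values were 223 and 155 and its recovery values 297 and 337, so the 3-day heat libraries were the highest of all. The most abundant member behaved alike in order, at 8795 and 5698 in the 3-day control, 14543 and 14142 in recovery, and 22190, 20196 and 17059 under 3 days of heat. In the 6 h heat group it had 1354, 1361 and 4497, with replicate 3 apart, and its rise from there to 3 days of heat was 3.28 (SE 0.61, limma adjusted p 0.0013).

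The 4 members that fell did so by 0.25 to 0.80. ENSBTAG00000001607 fell by 0.80 on the log2 scale (SE 0.18, limma adjusted p 0.0035). Its values were 1530, 1508 and 1039 in the 6 h control, 1697, 1695 and 1242 in the 6 h heat group, 2097 and 1711 in the 3-day control, 3361 and 2960 in recovery, and 993, 915 and 740 under 3 days of heat. It was highest in recovery and lowest in continued heat, and those groups overlapped no other. ENSBTAG00000021204 fell by 0.76 (SE 0.15, limma adjusted p 0.00214). Its values were 947, 893 and 1073 in the 6 h control, 855, 880.1 and 1274 in the 6 h heat group, 1006 and 782 in the 3-day control, 1576 and 1339 in recovery, and 550.0, 560 and 635 under 3 days of heat. Recovery was again the highest group and continued heat the lowest.

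**Figure D4:**
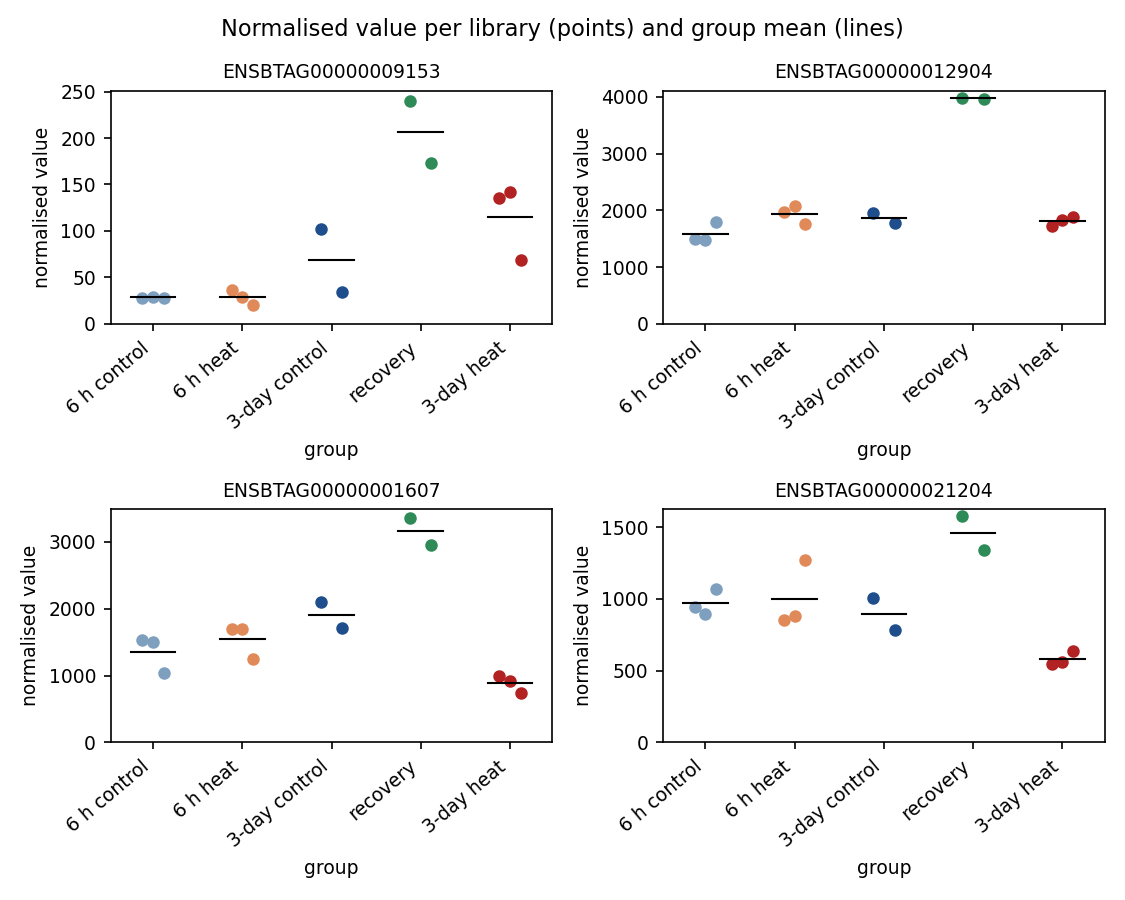
Each panel gives the normalised value (vertical axis, from 0) of 1 gene in the 5 groups, with a point per library and a line at the group mean. The recovery group is the highest in all 4 genes, and continued heat is the lowest group in ENSBTAG00000001607 and ENSBTAG00000021204.

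The 48 members that were not called between 3 days and 6 h of heat had a median change of 0.093, from -0.57 to 1.42. Against the 6 h level their median was -0.0091 in the 3-day control, 0.62 in recovery and 0.11 under 3 days of heat. The 66 members that rose had medians of 0.49 in the 3-day control, 1.15 in recovery and 1.11 under 3 days of heat. In 4 of these 66 the mean under 3 days of heat was at or below that of the 3-day control. The split by the call under 3 days of heat fixes the levels of that group, and within both sets the 3-day control ranged widely, from -1.02 to 2.14 in the 48 and from -0.34 to 2.50 in the 66. The most abundant of the 48 had 10026 and 6281 in the 3-day control, 12775 and 11973 in recovery, and 7229, 7159 and 6588 under 3 days of heat, where its 6 h libraries ran from 6702 to 7731. The control libraries of this gene straddled all others outside recovery.

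The label of a rise after recovery alone was met only in part. The recovery libraries lay above all 11 other libraries in 63 members (53.4%), against 6.64% of the tested genes. Because the rule favours high recovery values, this count describes the members and tests nothing. In 21 of the 63 (17.8% of the 118) the 3-day control and 3-day heat means were both within 0.3 of the 6 h level. In those 21 members recovery exceeded the 6 h level by a median of 0.61, from 0.37 to 1.19. This subset was chosen after its values were seen and was not tested. How many of all tested genes meet the same limits was not counted, so the 21 are not shown to be particular to the members. In 31 members the mean under 3 days of heat was at or above that of recovery. In 60 it lay between the means of the 3-day control and of recovery, and in 27 it was at or below that of the control. This split was not counted over all tested genes, and the rule's choice of recovery above the control shapes it.

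The 3-day heat and recovery groups are compared with the same 2 control libraries, which the rule chose to be low, so their differences from it are given side by side and not related. The members' difference from the 3-day control had a median of 0.35 under 3 days of heat, from -1.71 to 2.98, and of 0.64 in recovery, from 0.505 to 1.76. All 3-day heat libraries were above both recovery libraries in 20 members (16.9%, against 33.0% of the tested genes) and below both in 69 (58.5%, against 33.7%). The rule also favours high recovery values, so these shares are partly set by the choice of members and test nothing. The member with the lowest difference under continued heat had values of 534 and 401 in the 3-day control, 838 and 687 in recovery, and 129, 157 and 138 under 3 days of heat. In the 6 h groups the same gene ran from 165 to 285, so it was high only in the 3-day groups at 37 °C.

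**Figure D5:**
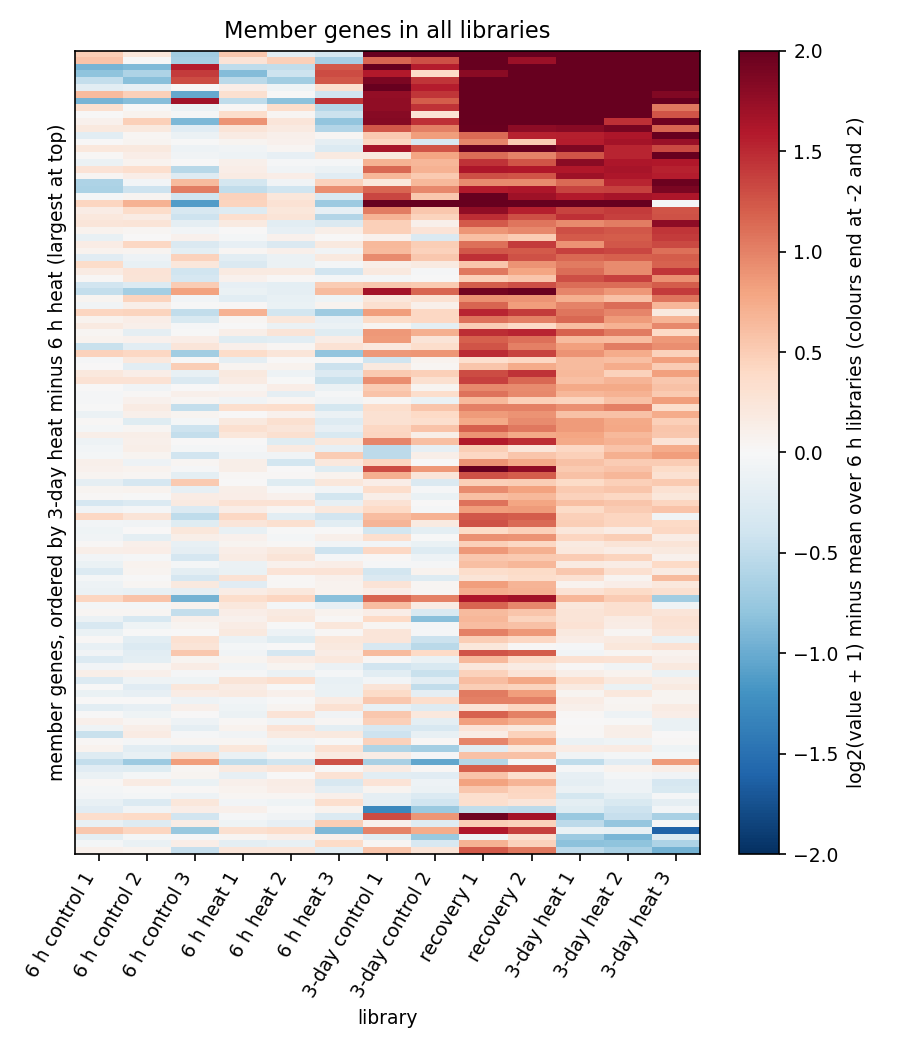
Rows are the 118 members, ordered by the difference of 3-day heat from 6 h heat with the largest at the top, and columns are the 13 libraries. Colour is log2(value + 1) minus the gene's mean over the 6 h libraries, with red above and blue below and the scale ending at -2 and 2. The recovery columns are red in nearly all rows, while the 3-day heat columns go from red at the top to pale in the lower rows and blue at the bottom.

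For comparison, the same limits with the direction turned round gave 120 genes that were lower after recovery. Of these, 83 (69.2%) fell and 5 (4.17%) rose between 6 h and 3 days of heat, with a median change of -1.03. The difference between the 2 sets was not tested. A further 138 genes within the limit on the mean were raised after recovery by the same rule but had also been raised by at least 0.3 at 6 h. Among the 11064 other tested genes in the same range of means, the 5 whose means over the 5 groups were most like the members' average profile had r between 0.991 and 0.996 over the 5 group means. Their differences after recovery were smaller, from 0.12 to 0.34, which left them outside the rule.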

How the data were processed

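Polyadenylated RNA was sequenced in 13 libraries. The deposited table holds a normalised signal per gene and library, which the authors scaled with DESeq, per the file headers and the table's name. The submitters' processing notes name cutadapt, STAR, HTSeq, DESeq and the build ARS-UCD1.2. Strand setting, annotation and versions of these tools are not given in the sources used here. The low values of each library were whole multiples of the value of 1 read, and 100% of values came out whole within 0.01 reads. Values were transformed as log2(value + 1), which understates changes of low genes, and tested in R 4.3.3 with limma 3.58.1 as 5 group means over 13 libraries (8 residual degrees of freedom, mean-variance trend, two-sided, Benjamini-Hochberg adjustment over 13684 genes, threshold 0.05). On simulated reads for 3 days against 6 h of heat, 84.0% of 100 genes changed by 1 on the log2 scale and 100% of 100 changed by 2 were called. The simulation changed 200 genes, gave all genes the same dispersion and set no replicate apart. It differs in this from the measured libraries, so these shares are not the sensitivity in these data.

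Groups came from the sample titles. The titles give 66 h of recovery where the series text speaks of 3 days, and the titles were used. The deviations of same-numbered 3-day heat and 6 h heat libraries correlated across genes with r of 0.34, 0.27 and 0.51. Each passed the criterion for pairing, r above 0.1, but libraries 1 and 2 across numbers did so too, at 0.28 and 0.32. Replicate 3 against the others gave from -0.44 to -0.37. The values therefore set replicate 3 apart from replicates 1 and 2, and do not show that the numbers 1 and 2 paired libraries. The members, tests and lists were chosen with earlier results of these data known. Genes were to be named by symbol. With no symbols, the 2 members with the largest difference after recovery and the 2 with the largest fall under 3 days of heat are given, and members described without an identifier were chosen after their values were seen. Alternatives were other pseudocounts, filters, scalings, models and limits of the rule, edgeR 4.0.16 and DESeq2 1.42.0 on the recovered reads, a replicate block, each library left out and, added after seeing the data, the limit on the mean without the 3-day heat libraries. The planned gene lists were not used.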

Additional observations from a re-analysis of the deposited data

How the results depend on the processing

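The number of members that rose under 3 days of heat stayed between 57 and 75 under all 19 alternatives. Meanwhile the share of all tested genes that rose went from 17.5% to 27.9%. With single libraries left out, the number of members that rose was 57 to 63. The number that fell was 9 with the replicate block and 10 within replicates 1 and 2, against 4, and 3 to 5 with single libraries left out. The members' median change was between 0.47 and 0.60 with single libraries left out, the lowest, 0.47, being without replicate 3 of the 6 h heat group. Over all genes limma called 6020 in this comparison, edgeR 6005, DESeq2 6127 and the fit with the block 7704. The calls of the named genes were kept, except that ENSBTAG00000012904 fell by 0.18 within replicates 1 and 2 (limma adjusted p 0.0217, against 0.0217 to 0.793 over its alternatives), and its difference was 0.20 with the 6 h control in place of 6 h heat. The number of genes that met the rule was 72 with a limit of 0.6 after recovery and 218 with 0.4, and from 107 to 202 with single libraries left out. Of the members, 79 passed as higher after recovery with the replicate block, against 20 without it and 17 by edgeR, where 2.92%, 0.643% and 0.592% of the tested genes did, and nothing is read from these counts because the rule used that contrast. The recovery and 3-day control groups had only 2 pairs, so their numbers do not establish pairing. Each of these groups had 2 libraries. Over the members, the spread between the 3-day control libraries had a median of 0.28 and an upper quartile of 0.44, which is close to a difference of 0.5.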
